A study of Mus musculus with 27 samples.

Results

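Interferon-stimulated genes are the antiviral and antimicrobial genes that cells switch on when an interferon reaches its receptor. They were followed here as a set of 44 genes, taken by gene symbol from the 55487 genes of the count table, and all 44 were found there. The rule used gene symbols only, but the genes were chosen with earlier results of these data known. Counts of called genes thus describe this set and are no independent test. The set holds the transcription factors of the pathway, the sensors of viral nucleic acid, the IFIT proteins, the oligoadenylate synthetases, the dynamin-like and guanylate-binding GTPases, the ISG15 system, membrane restriction factors and several further effectors.

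Polyadenylated RNA was read from primary mouse cultures of 3 kinds: microglia shaken off mixed glial cultures, bone marrow-derived macrophages (BMDM) grown in M-CSF, a macrophage growth factor, and hepatocytes plated on collagen. Each was kept for 24 h with an ethanol vehicle, with 10 µM 24(S)-saringosterol, a plant and algal sterol, or with 1 µM of a synthetic compound that activates liver X receptors (LXR). The labels spell the agonist GW3596, GW3964 or GW3965, and it is called GW here. There were 3 libraries in each of the 9 groups, 27 in all. For treatment, hepatocytes were in Williams' E medium, while both macrophage types were in DMEM/F12 supplemented with albumin, M-CSF and an insulin mix, so medium and cell type cannot be told apart between hepatocytes and the other cells. No interferon, virus or endotoxin treatment is named for any group, and the labels give no strain, genotype, age or sex and do not tell if a group's 3 libraries stem from different animals or cultures. All p-values thus reflect the spread among these libraries alone, which may be technical, and because saringosterol and GW were used at different doses, a difference between them is one between these 2 treatments as given.

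In the pathway, type I interferons such as interferon beta bind the receptor IFNAR1/IFNAR2, and the kinases JAK1 and TYK2 then phosphorylate signal transducers of the STAT family, STAT2 among them. With IRF9, STAT2 is part of the complex ISGF3, which binds the interferon-stimulated response element (ISRE) in the promoters of its target genes. Interferon gamma acts through another element, the gamma-activated site (GAS). Microglia and macrophages keep low activity of this pathway without infection, and agonists of LXR are known to lower inflammatory genes in macrophages.

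To show what the genes share in sequence, the 300 bases around their start sites (250 before, 50 after) were searched on both strands in the RefSeq promoter table (GRCm38.p6) for the ISRE core, GAAA then any 2 bases and GAAA again, and for the GAS letters TTCNNNGAA, with overlapping matches counted separately. Of the 44 genes, 34 had an entry. The ISRE core stood in at least 1 window of 20 of these 34 genes (58.8%), against 3.99% of the 27025 genes in the table, and the GAS letters in 7 (20.6%), against 9.55%. A match describes letters and is not a binding site, and these windows bear on nothing outside them. The 150 bases before the start are printed 5′ to 3′ on the gene's strand, with ISRE core matches on either strand in capitals (on the opposite strand they read as TTTC, any 2 bases, TTTC) and lower case elsewhere. Isg15 (chr4:156200819-156200968, minus strand) carries 3 overlapping matches that begin at -78, -72 and -66 from the start. Ifit1 (chr19:34640739-34640888, plus strand) carries 2, at -104 and -85, Rsad2 (chr12:26456453-26456602, minus strand) 1 at -120, Bst2 (chr8:71537473-71537622, minus strand) 2 at -130 and -124, and Gbp2 (chr3:142620513-142620662, plus strand) 1 at -59. Oasl1 (chr5:114923090-114923239, plus strand) is shown as a gene with none of these letters in this window.
Isg15: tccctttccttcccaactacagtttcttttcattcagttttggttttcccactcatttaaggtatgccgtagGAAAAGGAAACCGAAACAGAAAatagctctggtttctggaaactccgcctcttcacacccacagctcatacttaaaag
Ifit1: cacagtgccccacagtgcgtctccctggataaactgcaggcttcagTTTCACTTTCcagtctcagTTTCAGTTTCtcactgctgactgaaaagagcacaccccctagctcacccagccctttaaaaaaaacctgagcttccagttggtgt
Rsad2: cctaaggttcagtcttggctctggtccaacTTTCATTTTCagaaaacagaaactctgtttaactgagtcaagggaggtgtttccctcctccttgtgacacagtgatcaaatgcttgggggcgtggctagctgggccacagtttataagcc
Bst2: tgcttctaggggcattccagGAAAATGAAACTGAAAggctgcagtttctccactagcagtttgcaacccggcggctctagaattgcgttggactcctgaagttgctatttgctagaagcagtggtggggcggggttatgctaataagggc
Gbp2: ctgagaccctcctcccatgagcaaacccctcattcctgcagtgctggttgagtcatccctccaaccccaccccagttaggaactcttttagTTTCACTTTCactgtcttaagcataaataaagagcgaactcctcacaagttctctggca
Oasl1: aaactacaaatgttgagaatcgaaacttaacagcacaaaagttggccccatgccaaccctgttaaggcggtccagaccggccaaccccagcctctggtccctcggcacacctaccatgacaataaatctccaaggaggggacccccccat

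Several of the genes are neighbours on GRCm38 or share a chromosome. All 5 Ifit genes lie on chromosome 19 between 34550694 and 34650009. The 5 oligoadenylate synthetase genes are on chromosome 5, with Oasl1 and Oasl2 (from 114896936) apart from Oas1a, Oas2 and Oas3 (from 120730333). Gbp2, Gbp3 and Gbp7 are on chromosome 3. On chromosome 16, Parp9, Parp14 and Dtx3l (from 35832874) lie far from Mx1 and Mx2 (from 97447035). Rsad2 (26442746 to 26456452) and Cmpk2 (26469204 to 26479837) stand next to each other on chromosome 12 and point apart. The files list Mx1 and Mx2 as polymorphic pseudogenes. Near-identical copies make some values uncertain, since how reads shared by several genes were counted is not given: 51.2% of the 50-base stretches of Ifit3 transcripts also occur in another gene, Ifit3b, and 57.6% of those of Oas1a occur elsewhere, most of them in Oas1g. The spans of 18 genes of the set overlap another gene, and the strand setting of the counting is not given.

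Library totals lay between 30295862 and 41040268 counts, so that a count of 0 allows up to 0.0731 to 0.099 CPM (counts scaled to the library total), for counting error only, because the reads carry no molecular identifiers. The cells carried the markers of their labels in part. The 8 macrophage markers summed to 34550 to 36400 CPM in vehicle microglia and 26300 to 28020 in vehicle BMDM against 341 to 372 in vehicle hepatocytes. The 8 hepatocyte markers summed to 10750 to 11150 CPM in vehicle hepatocytes against 0.0296 to 1.52 in vehicle BMDM. The 8 microglial markers summed to 829 to 859 CPM in vehicle microglia, 233 to 248 in vehicle BMDM and 105 to 107 in vehicle hepatocytes. The labelled microglia held little of the defining microglial genes Tmem119 (3.70 to 4.86 CPM with vehicle) and P2ry12 (10.3 to 12.7 CPM) and had Siglech at 0. In the BMDM given saringosterol, replicate 3 stood apart in the interferon-stimulated genes, and the changes of BMDM are given with and without it. Over expressed genes, not only this set, it also differed from its group. Against sampling noise, its chi-square per degree of freedom was 37.43 with replicate 1 and 36.03 with replicate 2. Between replicates 1 and 2 the value was 7.367, and the highest pair without replicate 3 in any group had 12.64.

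Without treatment, every one of the 44 genes was higher in vehicle microglia than in vehicle BMDM (44 of 44 at an edgeR adjusted p under 0.05; 25.8% of all 17466 tested genes were higher), with a median log2 difference of 1.58 and a range of 0.36 to 3.43. In such bulk samples, fewer cells of a type and less RNA per cell cannot be told apart. Compared per length, in TPM (transcript level scaled to gene length and library) as deposited, the membrane protein gene Ifitm3, which hinders the entry of viruses, stood highest in each cell type, at 4258 ± 169.6 TPM (SD, n = 3) in microglia, 601 ± 159.7 in BMDM and 2629.9 ± 200 in hepatocytes. Ifi44 stood lowest in microglia (9.95 ± 1.4 TPM) and in BMDM (2.18 ± 0.57). In hepatocytes the lowest was Oas2, with 0.14 ± 0.116 TPM and 4, 5 and 16 counts in the 3 vehicle libraries.

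In hepatocytes genes of the set differed in both directions, as all tested genes did. Against the mean of both macrophage types, 26 genes were higher (39.3% of all tested genes were) and 14 lower (39.5% of all tested genes were). Those higher were led by Oasl1, which restrains translation of Irf7, at a log2 difference of 5.64 ± 0.154 (SE, edgeR adjusted p = 2.4e-09), followed by Usp18, the protease that takes ISG15 off proteins, at 2.90 ± 0.071 (SE, edgeR adjusted p = 3.9e-18), and Isg15 itself at 2.66 ± 0.081 (SE, edgeR adjusted p = 1.3e-14). Among the lower genes were Slfn5 at -7.49 ± 0.098 (SE, edgeR adjusted p = 4.2e-26), Oas2 at -6.63 ± 0.334 (SE, edgeR adjusted p = 5.6e-10), Sp100 at -5.83 ± 0.164 (SE, edgeR adjusted p = 6.1e-12), Ifit2 at -4.94 ± 0.158 (SE, edgeR adjusted p = 2.5e-10) and Mx1 at -4.73 ± 0.242 (SE, edgeR adjusted p = 3.2e-13). Ifitm3, Stat2, Parp14 and Samd9l did not pass the test. The mean lies between the macrophage types, so a gene above it can still be below microglia. Irf7, for example, had 299 TPM in vehicle hepatocytes, 362 in microglia and 31.2 in BMDM. The plot of vehicle levels shows both directions within a family, with Ifit1 above and Ifit2 below the macrophage levels in hepatocytes.

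**Figure D1:**
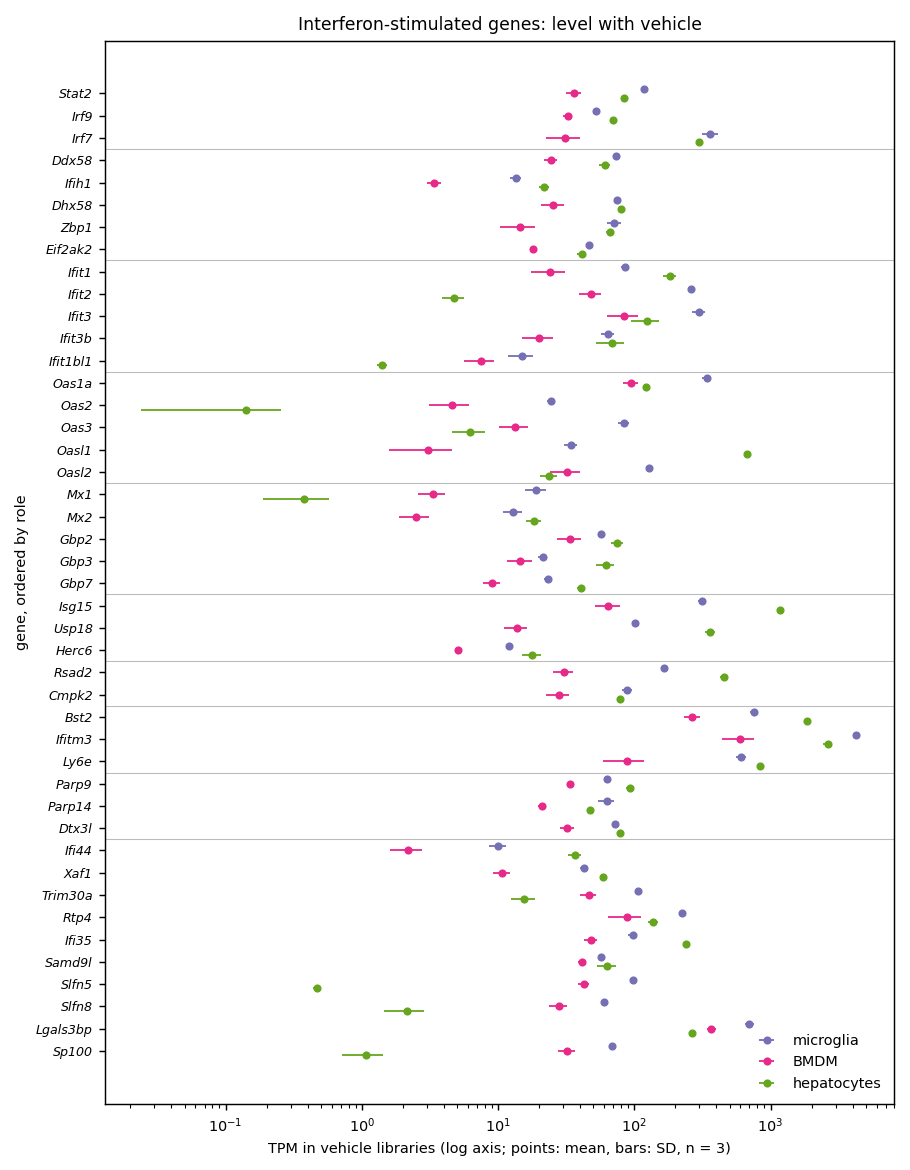
Level of the 44 interferon-stimulated genes in vehicle libraries, in TPM on a log axis (points are means, bars SD, n = 3; violet microglia, pink BMDM, green hepatocytes; genes are ordered by role). Microglia stand above BMDM for every gene, while hepatocytes stand far to the right for Oasl1 and far to the left for Oas2, Mx1, Slfn5 and Sp100.

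In microglia both treatments lowered the set, GW in every gene and saringosterol in all but 1. GW lowered 44 of 44 genes (15.2% of all 16065 tested genes fell with GW), with a median log2 change of -1.11 and a range of -2.46 to -0.34, while the median of all genes was -0.01. Saringosterol lowered 43 of 44 genes (6.66% of all tested genes fell with saringosterol) and raised 0 (4.19% rose), with a median of -0.67 and a range of -1.53 to -0.32; Parp14 did not pass the test. The 3 libraries of each treatment lay below all 3 vehicle libraries in 44 of 44 genes with saringosterol (14.4% of all tested genes) and in 44 of 44 with GW (21.2%). At least a 2-fold fall was reached by 9 genes with saringosterol and 24 with GW, while the shares of all tested genes that fell as far were not determined. Set against GW, the level with saringosterol was higher in 36 genes (12.5% of all tested genes were higher) and lower in 0 (12.9% of all tested genes were lower), with a median difference of 0.44. The 2 treated groups did not overlap in 40 genes, all higher with saringosterol (18.9% of all tested genes; 19.6% were apart in the other direction).

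**Figure D2:**
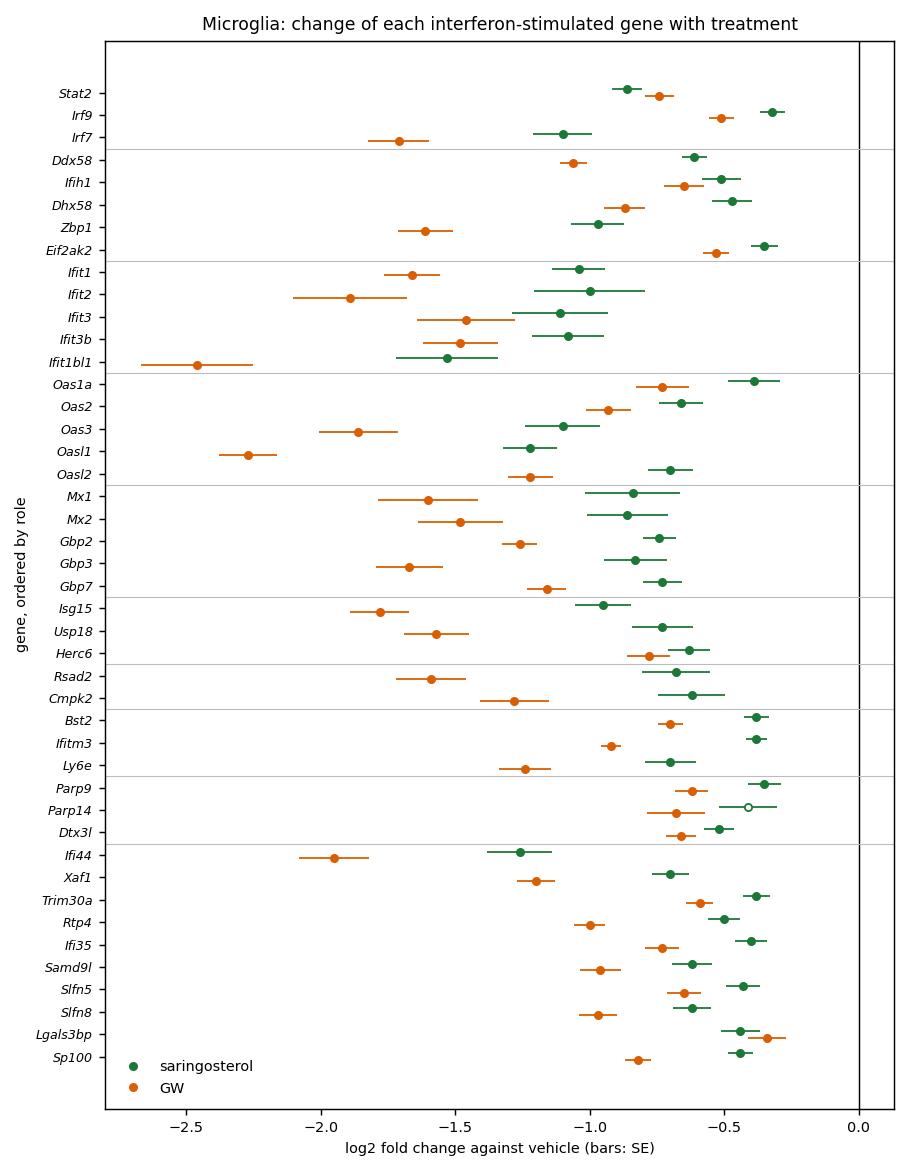
log2 fold change of each interferon-stimulated gene in microglia against vehicle (points are edgeR estimates, bars SE; green saringosterol, orange GW; filled points have an adjusted p under 0.05). All estimates lie below 0, from -1.53 to -0.32 with saringosterol and from -2.46 to -0.34 with GW, and Parp14 with saringosterol is the open point.

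The transcription factors of the pathway fell in microglia, though by different amounts. Irf7, which drives the later wave of interferon genes, stood at 402, 447 and 527 CPM in the 3 vehicle libraries, 221, 216 and 206 with saringosterol and 126, 150 and 145 with GW, so that the 3 groups did not overlap. It fell by 1.10 ± 0.11 (SE, edgeR adjusted p = 0.00075) on the log2 scale with saringosterol, and with GW it fell by 1.71 ± 0.112 (SE, edgeR adjusted p = 2.1e-05). Stat2, a subunit of ISGF3, had 219.5, 237 and 248 CPM with vehicle, 133, 135 and 119 with saringosterol and 130.3, 148 and 144 with GW. Both treatments brought it to like levels: it fell by 0.86 ± 0.055 (SE, edgeR adjusted p = 3.1e-10) with saringosterol and dropped by 0.74 ± 0.055 (SE, edgeR adjusted p = 5.6e-10) with GW, and the difference between them was -0.12 ± 0.055 (SE, edgeR adjusted p = 0.12). Irf9, the DNA-binding subunit, moved least of the 3, from 92.8, 92.4 and 97.9 CPM to 76.8, 73.5 and 76.8 with saringosterol and 64.6, 66 and 68.5 with GW. Its log2 changes were -0.32 ± 0.046 (SE, edgeR adjusted p = 9.5e-06) and -0.51 ± 0.047 (SE, edgeR adjusted p = 4.3e-10). Reads of Irf9 may be shared with Rnf31, a coding gene that overlaps it on the same strand.

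All 5 sensors of nucleic acid fell with both treatments (median log2 change -0.51 with saringosterol and -0.87 with GW). Ddx58, which encodes the RNA sensor RIG-I, went from 175, 169.7 and 178 CPM to 120, 109 and 115 with saringosterol and 77.5, 84.9 and 88.4 with GW. It fell by 0.61 ± 0.048 (SE, edgeR adjusted p = 1.1e-10) and dropped by 1.06 ± 0.049 (SE, edgeR adjusted p = 5.3e-17), respectively. Zbp1, a sensor of Z-form nucleic acid that can trigger cell death, had 72, 89.4 and 90.9 CPM with vehicle, 44.4, 41.9 and 42.8 with saringosterol and 23.7, 30.9 and 27.9 with GW. This was the largest change among the sensors, -0.97 ± 0.098 (SE, edgeR adjusted p = 3e-05) with saringosterol and -1.61 ± 0.102 (SE, edgeR adjusted p = 8.9e-08) with GW. Ifih1, which encodes the RNA sensor MDA5, had 33.4, 40.9 and 37, then 25.3, 26.8 and 25.9 and 22.6, 25 and 23.4 CPM. Its levels under the 2 treatments were close, with changes of -0.51 ± 0.073 (SE, edgeR adjusted p = 6.8e-06) and -0.65 ± 0.074 (SE, edgeR adjusted p = 2.9e-08) and a difference between them of 0.14 ± 0.075 (SE, edgeR adjusted p = 0.2). Dhx58 (LGP2, a partner of both RNA sensors) and Eif2ak2 (the kinase PKR, which halts translation) fell as well, by 0.47 and 0.35 with saringosterol and by 0.87 and 0.53 with GW.

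The IFIT proteins, which bind foreign RNA and hold back its translation, fell the most as a family: all 5 genes fell with each treatment, with medians of -1.08 for saringosterol and -1.66 for GW. Ifit1, which recognises RNA caps that lack methylation, stood at 70.2, 81.9 and 76.4 CPM with vehicle, 35.9, 36.8 and 38.3 with saringosterol and 19.2, 27 and 25.9 with GW. It fell by 1.04 ± 0.099 (SE, edgeR adjusted p = 1.1e-05) and dropped by 1.66 ± 0.103 (SE, edgeR adjusted p = 3.5e-08). Ifit2 had 320.5, 362 and 354 CPM, then 169, 176 and 174 with saringosterol and 61.7, 112 and 105 with GW. The first GW library was the lowest of its group, and the changes were -1.0 ± 0.206 (SE, edgeR adjusted p = 0.029) and -1.89 ± 0.213 (SE, edgeR adjusted p = 0.00065). Ifit3 had 152, 189 and 183, 80.1, 82.2 and 80.5 and 46.8, 76.9 and 66.9 CPM in the same order. It fell by 1.11 ± 0.179 (SE, edgeR adjusted p = 0.01) and dropped by 1.46 ± 0.182 (SE, edgeR adjusted p = 0.0011). Ifit1bl1, a relative of Ifit1 on the same cluster, had the largest change of the whole set, from 8.63, 12 and 13.4 CPM to 3, 4.09 and 4.71 and 1.45, 2.55 and 2.15. Its log2 changes were -1.53 ± 0.191 (SE, edgeR adjusted p = 9e-06) with saringosterol and -2.46 ± 0.207 (SE, edgeR adjusted p = 7.3e-09) with GW. Ifit3b, which shares much of its sequence with Ifit3, fell by 1.08 and 1.48.

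The oligoadenylate synthetase family, whose catalytic members make the signal that activates RNase L, fell in all 5 genes with both treatments. Oasl1 and Oasl2, whose products resemble the synthetases, differed in size of change. Oasl1 stood at 26.2, 30.1 and 33.2 CPM with vehicle, 13, 12.9 and 12.5 with saringosterol and 4.93, 6.6 and 6.96 with GW. It fell by 1.22 ± 0.1 (SE, edgeR adjusted p = 5.7e-10) and dropped by 2.27 ± 0.109 (SE, edgeR adjusted p = 7.3e-16), second with GW to Ifit1bl1 alone. Oasl2 went from 266, 272 and 289 CPM to 182, 168 and 158 and 103, 131 and 121. Here the changes were -0.70 ± 0.083 (SE, edgeR adjusted p = 0.00041) and -1.22 ± 0.085 (SE, edgeR adjusted p = 2e-06). Oas3 had 177, 199 and 218 CPM, then 102, 93.6 and 82.1 and 44.8, 59 and 59.3, and it fell by 1.10 ± 0.14 (SE, edgeR adjusted p = 0.0033) with saringosterol and dropped by 1.86 ± 0.146 (SE, edgeR adjusted p = 7.9e-05) with GW. Oas2, with 36.6, 39 and 34.4, 22.8, 23.8 and 22.8 and 16.1, 20.1 and 21.4 CPM, fell by 0.66 ± 0.081 (SE, edgeR adjusted p = 8.4e-07) and dropped by 0.93 ± 0.083 (SE, edgeR adjusted p = 3.7e-10). The smallest change of the family was that of Oas1a, -0.39 ± 0.097 (SE, edgeR adjusted p = 0.041) with saringosterol and -0.73 ± 0.098 (SE, edgeR adjusted p = 0.00063) with GW, which shares much sequence with Oas1g.

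The 5 GTPase genes also fell with both treatments, at medians of -0.83 and -1.48. Mx1, whose human counterpart traps incoming viral particles, was at 19.3, 25.3 and 28.2 CPM with vehicle, 12.4, 14.1 and 14.3 with saringosterol and 6.29, 10.3 and 7.34 with GW, and it fell by 0.84 ± 0.176 (SE, edgeR adjusted p = 0.012) and dropped by 1.60 ± 0.186 (SE, edgeR adjusted p = 7.7e-05). Gbp2, a guanylate-binding protein that attacks vacuoles of intracellular microbes, went from 46.2, 47.8 and 51.1 to 29.6, 28.5 and 28.9 and 19.4, 20.6 and 20.6 CPM with little spread within groups. Its changes were -0.74 ± 0.063 (SE, edgeR adjusted p = 5.5e-10) and -1.26 ± 0.065 (SE, edgeR adjusted p = 8.2e-16). Mx2, Gbp3 and Gbp7 fell by 0.86, 0.83 and 0.73 with saringosterol and by 1.48, 1.67 and 1.16 with GW.

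Isg15, a ubiquitin-like modifier, and the genes that act on it fell too. Isg15 had 67.4, 78.5 and 76.8 CPM with vehicle, 37.4, 40 and 37.7 with saringosterol and 17.6, 25.7 and 21.7 with GW. It fell by 0.95 ± 0.103 (SE, edgeR adjusted p = 5.4e-05) and dropped by 1.78 ± 0.109 (SE, edgeR adjusted p = 6.4e-08), and it was 0.83 ± 0.111 (SE, edgeR adjusted p = 0.00012) higher with saringosterol than with GW. Usp18, which removes ISG15 and also damps the interferon receptor, had 88.1, 97.6 and 96.4, 58.4, 53.5 and 58.1 and 24.9, 35.8 and 34.1 CPM. It fell by 0.73 ± 0.114 (SE, edgeR adjusted p = 0.0037) and dropped by 1.57 ± 0.12 (SE, edgeR adjusted p = 9.7e-06). Herc6, the mouse ligase that attaches ISG15, fell by 0.63 and 0.78. The neighbours Rsad2, which encodes the antiviral enzyme viperin, and Cmpk2, a mitochondrial nucleotide kinase, moved alike. Rsad2 stood at 228, 249 and 241 CPM with vehicle, 139.7, 161 and 147 with saringosterol and 63.9, 84.8 and 90.4 with GW, and it fell by 0.68 ± 0.126 (SE, edgeR adjusted p = 0.017) and dropped by 1.59 ± 0.13 (SE, edgeR adjusted p = 9.8e-05). Cmpk2 fell by 0.62 and 1.28.

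The 3 membrane factors fell with both treatments. Ly6e, a membrane-anchored protein, had 711, 763 and 846 CPM with vehicle, 504, 464 and 459 with saringosterol and 288, 355 and 339 with GW, with changes of -0.70 ± 0.095 (SE, edgeR adjusted p = 0.0031) and -1.24 ± 0.096 (SE, edgeR adjusted p = 3.8e-05). Ifitm3 had 923, 963 and 1016 CPM with vehicle, 757, 721 and 748 with saringosterol and 493, 530.5 and 507 with GW, and it fell by 0.38 ± 0.038 (SE, edgeR adjusted p = 1.1e-08) and dropped by 0.92 ± 0.038 (SE, edgeR adjusted p = 4.1e-18). Bst2 (tetherin, which holds budding virus at the cell surface) had 212, 231 and 243, 177, 177 and 172 and 133, 147 and 141 CPM. It fell by 0.38 ± 0.046 (SE, edgeR adjusted p = 4.5e-07) and dropped by 0.70 ± 0.046 (SE, edgeR adjusted p = 3.2e-13). Sp100, a component of nuclear bodies, had 166, 177 and 173, 134, 122 and 123 and 92.2, 104 and 96.6 CPM, and its changes were -0.44 ± 0.047 (SE, edgeR adjusted p = 5.6e-08) and -0.82 ± 0.048 (SE, edgeR adjusted p = 2.1e-14). Lgals3bp, a secreted glycoprotein, and Stat2 were the only genes of the 44 with a larger estimated fall with saringosterol than with GW. Lgals3bp had 617, 655 and 732 CPM with vehicle, 525, 502 and 456 with saringosterol and 496, 553 and 534 with GW. The changes of Lgals3bp, -0.44 ± 0.072 (SE, edgeR adjusted p = 0.0031) and -0.34 ± 0.072 (SE, edgeR adjusted p = 0.0048), did not differ beyond their spread (-0.09 ± 0.072 (SE, edgeR adjusted p = 0.41) between the treatments). The RNA of Ifi44 was among the 5 largest changes, from 17.4, 20.5 and 23.5 CPM to 8.19, 8.87 and 8.59 and 4.13, 5.33 and 6.35. It fell by 1.26 ± 0.122 (SE, edgeR adjusted p = 3.4e-08) and dropped by 1.95 ± 0.129 (SE, edgeR adjusted p = 3.5e-12).

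The remaining genes in microglia were Parp9, Parp14, Dtx3l, Xaf1, Trim30a, Rtp4, Ifi35, Samd9l, Slfn5 and Slfn8. Each of them fell with GW, and with saringosterol all but Parp14, whose log2 change was -0.41 ± 0.107 (SE, edgeR adjusted p = 0.055). The ADP-ribosylation genes Parp9 and Parp14 and their partner Dtx3l were the least lowered of the role groups with GW, at -0.62, -0.68 and -0.66. The 20 genes with ISRE core letters in their promoter window had a median change of -1.11 with GW and the 14 without them a median of -1.08. With saringosterol these medians were -0.70 and -0.62.

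**Figure D3:**
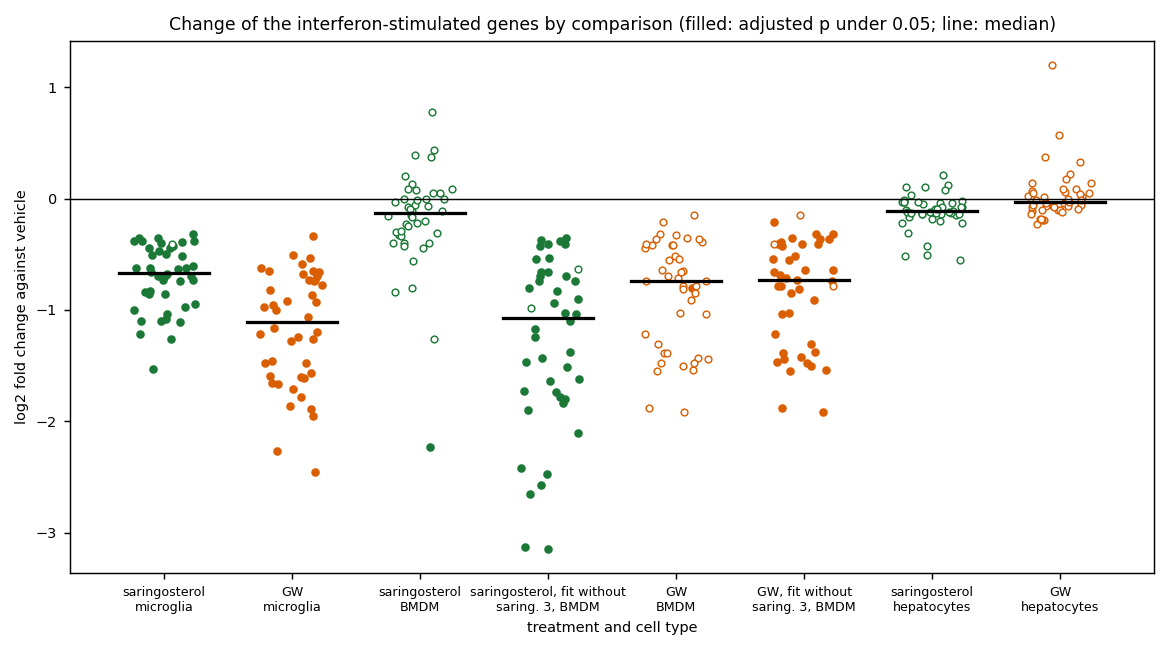
log2 fold change of the interferon-stimulated genes against vehicle in each treatment comparison (1 point per gene, line at the median; filled points have an adjusted p under 0.05; horizontal scatter is arbitrary). Microglia lie below 0 with both treatments. BMDM with saringosterol scatter around a median of -0.13 with all libraries and -1.07 without replicate 3 of that group, and hepatocytes lie around 0.

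In BMDM the answer for saringosterol depended on 1 library. Replicate 3 of the saringosterol group was above the other libraries of its group in 44 of 44 genes (35.5% of the 15416 tested genes) by 1.6-fold to 22.8-fold with a median of 3.8-fold, whereas the median log2 ratio over all tested genes was -0.01. In 41 of the 44 genes it was also above every vehicle library (33.2% of all tested genes). Replicates 1 and 2 were below every vehicle library in 44 of 44 genes (19.4% of all tested genes). The summed level of the set was 2626, 1927 and 2344 CPM in the vehicle libraries, 1177, 1363 and 4211 with saringosterol and 1405, 1344 and 1494 with GW.

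With all libraries, saringosterol lowered 1 of 44 genes, Ifit1bl1 (5.12% of all tested genes fell with saringosterol), and raised 0 (5.53% rose), with a median of -0.13. Ifit1bl1 had 7.28, 4.38 and 6.32 CPM with vehicle and 0.805, 0.562 and 2.41 with saringosterol, a log2 change of -2.23 ± 0.457 (SE, edgeR adjusted p = 0.017), or -3.15 ± 0.283 (SE, edgeR adjusted p = 9.2e-09) without replicate 3. Without that library, which leaves 2 saringosterol libraries, 42 of 44 genes were lower (6.02% of all 15873 tested genes were), with a median of -1.07. The exceptions were Rsad2 (-0.98 ± 0.244 (SE, edgeR adjusted p = 0.059)) and Ifitm3 (-0.63 ± 0.246 (SE, edgeR adjusted p = 0.2)). Replicate 3 was singled out because it stood high in these same genes. Counts and p-values without it, here and below, describe the libraries kept and are no independent test of a fall. At an unadjusted p under 0.05 the fit with all libraries counted 2 genes, for which the share of all tested genes was not determined. DESeq2 called 2 and limma-voom 2. Without vehicle replicate 1 edgeR called 0 at the adjusted threshold.

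The 3 GW libraries of BMDM lay below every vehicle library in 39 of 44 genes (16.1% of all tested genes). Yet in the fit of all 9 BMDM libraries, in which each gene has 1 estimate of spread for all groups, 1 gene was called lower, Ifih1 (4.76% of all tested genes fell with GW), and 0 higher (5.66% rose). The median change was -0.74. With saringosterol replicate 3 left out of that fit the same estimates, at a median of -0.74, gave 41 lower genes (7.81% of all tested genes), and the standard errors of this comparison went from a median of 0.57 to 0.135. Mx2, Oas2 and Parp14 were not called. This alternative was chosen after seeing the data. The count was 0 when any 1 of the GW libraries, vehicle replicate 1 or vehicle replicate 3 was left out.

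By role, the same split between libraries ran through the regulators. Irf7 had 51.9, 28.5 and 45 CPM with vehicle, 12.7 and 16.6 in saringosterol replicates 1 and 2 against 185 in replicate 3, and 21, 17 and 22.9 with GW. With all libraries its log2 change with saringosterol was 0.78 ± 1.023 (SE, edgeR adjusted p = 0.71), and without replicate 3 it was -1.51 ± 0.303 (SE, edgeR adjusted p = 0.032). With GW it was -1.04 ± 1.056 (SE, edgeR adjusted p = 0.62) with all libraries and -1.04 ± 0.256 (SE, edgeR adjusted p = 0.047) without that library in the fit. Stat2 had 80.8, 64.7 and 81.5 CPM with vehicle, 36.8 and 44.3 in saringosterol replicates 1 and 2 against 128 in replicate 3, and 51.3, 56.8 and 59.7 with GW. Replicates 1 and 2 were below, and replicate 3 above, all vehicle libraries, and the change was -0.11 ± 0.476 (SE, edgeR adjusted p = 0.92) with and -0.90 ± 0.103 (SE, edgeR adjusted p = 7.7e-06) without replicate 3. For GW the change of Stat2 was -0.44 ± 0.479 (SE, edgeR adjusted p = 0.65), or -0.43 ± 0.089 (SE, edgeR adjusted p = 0.0023) without that library. Irf9 had 66.8, 56.8 and 62.1 CPM with vehicle, 48.1 and 49 in saringosterol replicates 1 and 2 against 77.9 in replicate 3, and 49.3, 49.1 and 49.7 with GW. This smaller difference was -0.08 ± 0.186 (SE, edgeR adjusted p = 0.83) with and -0.35 ± 0.074 (SE, edgeR adjusted p = 0.0017) without replicate 3, and with GW -0.33 ± 0.187 (SE, edgeR adjusted p = 0.34) and -0.32 ± 0.066 (SE, edgeR adjusted p = 0.0009).

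Of the sensors, Ddx58 had 65, 52.8 and 65.5 CPM with vehicle, 26.8 and 32.9 in saringosterol replicates 1 and 2 against 85.4 in replicate 3, and 42.5, 32.3 and 42.6 with GW. Its change with saringosterol was -0.33 ± 0.444 (SE, edgeR adjusted p = 0.71) with all libraries and -1.03 ± 0.138 (SE, edgeR adjusted p = 0.00036) without replicate 3; with GW it was -0.64 ± 0.447 (SE, edgeR adjusted p = 0.44) and -0.64 ± 0.119 (SE, edgeR adjusted p = 0.003). Ifih1 had 11, 8.62 and 10.1 CPM with vehicle, 5.42 and 4.94 in saringosterol replicates 1 and 2 against 9.74 in replicate 3, and 5.52, 5.93 and 5.63 with GW. In this gene replicate 3 did not pass the vehicle level, and Ifih1 was the gene called lower with GW in the fit of all libraries, at -0.80 ± 0.212 (SE, edgeR adjusted p = 0.028), or -0.79 ± 0.137 (SE, edgeR adjusted p = 0.00014) without that library. Its change with saringosterol was -0.56 ± 0.21 (SE, edgeR adjusted p = 0.11), and -0.94 ± 0.158 (SE, edgeR adjusted p = 0.00014) without replicate 3. Zbp1 had 23.9, 13.3 and 17.7 CPM with vehicle, 5.33 and 5.35 in saringosterol replicates 1 and 2 against 52 in replicate 3, and 6.41, 5.78 and 6.56 with GW. The GW libraries of Zbp1 were close together, at -1.55 ± 0.967 (SE, edgeR adjusted p = 0.39) with all libraries and -1.55 ± 0.159 (SE, edgeR adjusted p = 5.5e-07) without saringosterol replicate 3. Its change with saringosterol was 0.20 ± 0.909 (SE, edgeR adjusted p = 0.92) with that library and -1.78 ± 0.188 (SE, edgeR adjusted p = 1.2e-06) without it.

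The IFIT genes were the furthest below vehicle in saringosterol replicates 1 and 2, with a median of -2.65 over the 5 genes once replicate 3 was left out, against -1.42 with GW. Ifit1 had 27.6, 15.6 and 25.3 CPM with vehicle, 4.06 and 4.47 in saringosterol replicates 1 and 2 against 29.5 in replicate 3, and 12.4, 6.82 and 10.2 with GW. The saringosterol change of Ifit1 was -0.84 ± 0.8 (SE, edgeR adjusted p = 0.59) with and -2.42 ± 0.356 (SE, edgeR adjusted p = 0.0067) without replicate 3, and its GW change -1.22 ± 0.812 (SE, edgeR adjusted p = 0.42) and -1.22 ± 0.28 (SE, edgeR adjusted p = 0.03). Ifit2 had 78, 53.4 and 69.5 CPM with vehicle, 13.1 and 11.2 in saringosterol replicates 1 and 2 against 127 in replicate 3, and 30.2, 19.7 and 26.6 with GW. With replicate 3 the saringosterol change was -0.40 ± 0.931 (SE, edgeR adjusted p = 0.84), without it -2.47 ± 0.248 (SE, edgeR adjusted p = 0.0012). GW gave Ifit2 -1.39 ± 0.959 (SE, edgeR adjusted p = 0.44) and, without that library, -1.39 ± 0.199 (SE, edgeR adjusted p = 0.0047). Ifit3 had 62.7, 36.8 and 57.9 CPM with vehicle, 8.61 and 8.16 in saringosterol replicates 1 and 2 against 73.3 in replicate 3, and 25.2, 13.1 and 19.7 with GW. Its changes were -0.80 ± 0.887 (SE, edgeR adjusted p = 0.65) with and -2.65 ± 0.39 (SE, edgeR adjusted p = 0.012) without replicate 3 for saringosterol, and -1.44 ± 0.908 (SE, edgeR adjusted p = 0.4) and -1.44 ± 0.307 (SE, edgeR adjusted p = 0.034) for GW.

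In the synthetase family, Oasl2 had 88.6, 52.7 and 75.4 CPM with vehicle, 22 and 29.9 in saringosterol replicates 1 and 2 against 151 in replicate 3, and 24, 22.7 and 27.9 with GW. The estimate for saringosterol was -0.09 ± 0.732 (SE, edgeR adjusted p = 0.96) with and -1.47 ± 0.265 (SE, edgeR adjusted p = 0.023) without replicate 3, and for GW -1.54 ± 0.761 (SE, edgeR adjusted p = 0.28) and -1.54 ± 0.23 (SE, edgeR adjusted p = 0.0086). Oas2 had 9.19, 4.59 and 8.14 CPM with vehicle, 1.95 and 4.16 in saringosterol replicates 1 and 2 against 15.6 in replicate 3, and 3.49, 5.04 and 4.13 with GW. The second vehicle library was close to the treated ones, and with GW Oas2 did not pass the test either way (-0.79 ± 0.752 (SE, edgeR adjusted p = 0.59) and -0.79 ± 0.295 (SE, edgeR adjusted p = 0.1)). With saringosterol it was -0.00 ± 0.732 (SE, edgeR adjusted p = 1), and -1.24 ± 0.348 (SE, edgeR adjusted p = 0.046) without replicate 3. Oas3 had 40, 24.3 and 35.6 CPM with vehicle, 7.25 and 11.7 in saringosterol replicates 1 and 2 against 75.7 in replicate 3, and 9.43, 7.62 and 9.41 with GW. Oasl1 had 4.44, 2.08 and 2.04 CPM with vehicle, 0.712 and 1.1 in saringosterol replicates 1 and 2 against 6.97 in replicate 3, and 1.24, 1.14 and 0.905 with GW. With all libraries Oas3 was -0.07 ± 0.846 (SE, edgeR adjusted p = 0.97) with saringosterol and -1.92 ± 0.907 (SE, edgeR adjusted p = 0.26) with GW, and Oasl1 0.05 ± 0.856 (SE, edgeR adjusted p = 0.98) and -1.39 ± 0.921 (SE, edgeR adjusted p = 0.42). Both were lower with each treatment once replicate 3 was left out, Oas3 at -1.80 and -1.92 and Oasl1 at -1.64 and -1.38.

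Among the GTPases and the ISG15 system, Mx1 had 4.31, 3.51 and 5.51 CPM with vehicle, 0.836 and 1.2 in saringosterol replicates 1 and 2 against 7.68 in replicate 3, and 2.89, 2.83 and 2.25 with GW. Mx1 without replicate 3 was further below vehicle with saringosterol, at -2.11 ± 0.274 (SE, edgeR adjusted p = 3.6e-06), than with GW, at -0.74 ± 0.214 (SE, edgeR adjusted p = 0.018), and the difference between the treatments was -1.37 ± 0.276 (SE, edgeR adjusted p = 0.0013). With all libraries these changes were -0.44 ± 0.795 (SE, edgeR adjusted p = 0.79) and -0.74 ± 0.806 (SE, edgeR adjusted p = 0.64). Gbp2 had 34.4, 23.4 and 32.7 CPM with vehicle, 15.2 and 11.8 in saringosterol replicates 1 and 2 against 68.7 in replicate 3, and 18.3, 17.9 and 19.7 with GW. Its changes were 0.09 ± 0.671 (SE, edgeR adjusted p = 0.96) with and -1.17 ± 0.146 (SE, edgeR adjusted p = 2.1e-05) without replicate 3, and -0.70 ± 0.683 (SE, edgeR adjusted p = 0.61) and -0.69 ± 0.124 (SE, edgeR adjusted p = 0.0007) for GW. Isg15 had 19.2, 12.5 and 16.6 CPM with vehicle, 5.05 and 4.03 in saringosterol replicates 1 and 2 against 27.4 in replicate 3, and 7.96, 5.26 and 6.33 with GW. Isg15 gave -0.40 ± 0.736 (SE, edgeR adjusted p = 0.8) and, without replicate 3, -1.84 ± 0.193 (SE, edgeR adjusted p = 7.5e-07) with saringosterol, and -1.31 ± 0.762 (SE, edgeR adjusted p = 0.36) and -1.31 ± 0.16 (SE, edgeR adjusted p = 4.1e-06) with GW. Usp18 had 16.4, 11.3 and 13 CPM with vehicle, 2.88 and 4.33 in saringosterol replicates 1 and 2 against 22.8 in replicate 3, and 7.62, 5.09 and 7.24 with GW. Without replicate 3 the changes of Usp18 were -1.90 ± 0.208 (SE, edgeR adjusted p = 1.6e-06) and -1.03 ± 0.17 (SE, edgeR adjusted p = 0.00018), and with it -0.43 ± 0.752 (SE, edgeR adjusted p = 0.78) and -1.03 ± 0.769 (SE, edgeR adjusted p = 0.48).

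For the remaining named genes, Rsad2 had 54.1, 38 and 48.5 CPM with vehicle, 26.3 and 21.6 in saringosterol replicates 1 and 2 against 97.6 in replicate 3, and 33.2, 20.7 and 24.3 with GW. With saringosterol Rsad2 was 0.05 ± 0.602 (SE, edgeR adjusted p = 0.97) over all libraries and -0.98 ± 0.244 (SE, edgeR adjusted p = 0.059) without replicate 3. With GW it was -0.85 ± 0.613 (SE, edgeR adjusted p = 0.47), and -0.85 ± 0.212 (SE, edgeR adjusted p = 0.045) without that library. Ifitm3 had 186, 109.7 and 138 CPM with vehicle, 81.8 and 105 in saringosterol replicates 1 and 2 against 381 in replicate 3, and 77.7, 72 and 80.9 with GW. Ifitm3 was 0.39 ± 0.6 (SE, edgeR adjusted p = 0.75) with saringosterol over all libraries and -0.63 ± 0.246 (SE, edgeR adjusted p = 0.2) without replicate 3. It was -0.91 ± 0.609 (SE, edgeR adjusted p = 0.43) with GW, which became -0.91 ± 0.218 (SE, edgeR adjusted p = 0.048) without that library. Bst2 had 98, 74.7 and 83.7 CPM with vehicle, 63 and 69.4 in saringosterol replicates 1 and 2 against 148 in replicate 3, and 67.8, 66.2 and 65.5 with GW. Its changes without replicate 3 were alike with both treatments, -0.37 ± 0.084 (SE, edgeR adjusted p = 0.0047) and -0.36 ± 0.075 (SE, edgeR adjusted p = 0.0016), against 0.13 ± 0.336 (SE, edgeR adjusted p = 0.86) and -0.36 ± 0.338 (SE, edgeR adjusted p = 0.58) with all libraries. Sp100 had 94.4, 71.8 and 92.2 CPM with vehicle, 51.1 and 58.3 in saringosterol replicates 1 and 2 against 115 in replicate 3, and 50.5, 54.3 and 58.5 with GW. The changes of Sp100 were -0.20 ± 0.32 (SE, edgeR adjusted p = 0.76) and -0.66 ± 0.322 (SE, edgeR adjusted p = 0.27) with all libraries and -0.66 ± 0.104 (SE, edgeR adjusted p = 0.00048) and -0.66 ± 0.092 (SE, edgeR adjusted p = 9.3e-05) without that library.

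Lgals3bp had 382, 338 and 396 CPM with vehicle, 249 and 303 in saringosterol replicates 1 and 2 against 633 in replicate 3, and 294, 264 and 319 with GW. Replicate 3 was 2.29-fold the mean of replicates 1 and 2 in this gene, and the changes were 0.09 ± 0.348 (SE, edgeR adjusted p = 0.91) and -0.35 ± 0.349 (SE, edgeR adjusted p = 0.61) with all libraries and -0.43 ± 0.096 (SE, edgeR adjusted p = 0.012) and -0.35 ± 0.085 (SE, edgeR adjusted p = 0.015) without it. Ifi44 had 5.46, 3.3 and 5.48 CPM with vehicle, 0.372 and 1.17 in saringosterol replicates 1 and 2 against 17.6 in replicate 3, and 1.08, 1.14 and 1.65 with GW. This was the largest excess of replicate 3 over the mean of the other replicates, 22.8-fold. It was 12.7-fold for Irf7 and 11-fold for Ly6e, and smallest for Irf9 at 1.6-fold. Saringosterol against GW called 0 of 44 genes with all libraries (4.75% of all tested genes were lower and 4.57% higher). DESeq2 and limma-voom also called 0. An unadjusted p under 0.05 was found for 1 gene, with the share of all tested genes not determined. Without replicate 3 it called 13 lower (5.06% of all tested genes), among them all 5 GTPase genes and 3 of the 5 IFIT genes.

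**Figure D4:**
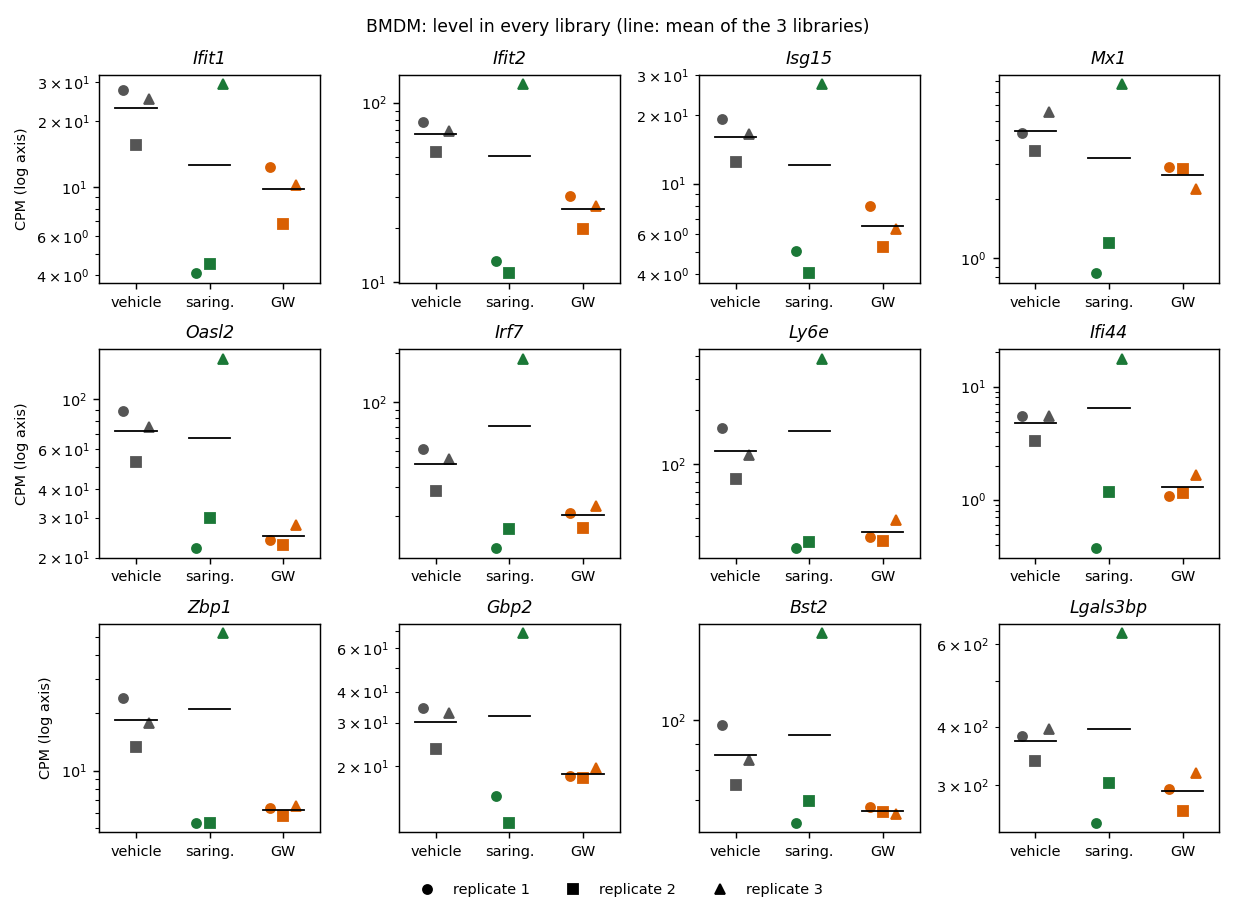
Level of 12 of the interferon-stimulated genes in each BMDM library, in CPM on a log axis (grey vehicle, green saringosterol, orange GW; circle, square and triangle are replicates 1, 2 and 3, the line is the mean). The triangle of the saringosterol group stands above the vehicle libraries in every panel, and its circle and square stand below them.

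The 8 macrophage markers summed to 20410, 20780 and 21940 CPM in saringosterol replicates 1, 2 and 3, the neutrophil list to 47, 55.6 and 41.9, the plasmacytoid dendritic cell list to 1.65, 1.77 and 2.23 and the list of T, NK and B cells to 0.621, 0.369 and 0.514. In the same order, the Kupffer cell list had 295.6, 316.4 and 384.6, the microglial list 232, 262.3 and 276.9 and the astrocyte list 15.68, 16.13 and 21.53. The endothelial list had 57.54, 59.41 and 50.74 and the oligodendrocyte list 72.35, 73.77 and 65.09. The stellate cell and fibroblast list had 1.366, 1.182 and 1.37 and the hepatocyte list 0.03105, 0 and 0.02446. Across the BMDM groups, the 4 Kupffer cell markers, which include the LXR target Cd5l, summed to 103 to 112 CPM with vehicle, 296 to 385 with saringosterol and 433 to 460 with GW. In microglia the astrocyte list went from 46.6 to 49.6 CPM with vehicle to 29.1 to 36.1 with saringosterol and 63.9 to 67.9 with GW, and the Kupffer cell list from 5.44 to 6.81 to 13.2 to 14.3 and 29.1 to 34.3. The astrocyte list was thus lower with saringosterol and higher with GW, while the Kupffer cell list was higher with both, more so with GW. The part of these markers in the results was not tested.

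In hepatocytes no gene of the set passed the test with either treatment. Of the 43 genes tested (Oas2 was too low), edgeR called 0 with saringosterol (0.888% of all 16098 tested genes rose and 1.02% fell) and 0 with GW (0.721% rose and 0.385% fell), with medians of -0.11 and -0.03. DESeq2 called 0 and 0 genes in these comparisons and limma-voom 0 and 2, while 6 and 10 genes had an unadjusted p under 0.05. The share of all tested genes at that unadjusted p was not determined, so these 6 and 10 cannot be read as a response. Standard errors had a median of 0.067 for saringosterol and 0.066 for GW, against 0.08 and 0.081 in microglia. The groups lay apart in 3 genes, lower, with saringosterol (9.95% of all tested genes; 9.42% in the other direction) and with GW in 3 lower and 3 higher (6.98% and 6.81%). Replicate 2 of the GW group was the highest of its group in 39 of 44 genes, and replicate 1 the lowest in 37. Ranks of this kind were also seen elsewhere. GW replicate 1 of microglia was the lowest of its group in 43 genes and vehicle replicate 2 of BMDM in 42. The shares of all tested genes were not determined for these ranks, so a shift of this set cannot be told from one of the whole library. Leaving out GW replicate 1 gave 2 genes higher with GW, leaving out GW replicate 2 gave 3 lower, and leaving out vehicle replicate 2 gave 1 with saringosterol. A single gene differed between the treatments: Oasl1 had 537, 586 and 595 CPM with saringosterol and 639, 728 and 692 with GW, a difference of -0.26 ± 0.051 (SE, edgeR adjusted p = 0.0028) (1.25% of all tested genes were lower with saringosterol), and without GW replicate 1 the count was 3. The 2 treated groups lay apart in 1 gene higher (8.45% of all tested genes) and 2 lower (9.78%) with saringosterol.

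Several of the genes were abundant in hepatocytes. Irf7 had 404, 418 and 385 CPM with vehicle, 359, 368 and 398 with saringosterol and 343, 396 and 379 with GW, with changes of -0.10 ± 0.051 (SE, edgeR adjusted p = 0.32) and -0.11 ± 0.051 (SE, edgeR adjusted p = 0.55). Isg15 had 301, 292 and 289 CPM with vehicle, 248, 271 and 289 with saringosterol and 257, 320.3 and 273 with GW, with changes of -0.13 ± 0.065 (SE, edgeR adjusted p = 0.34) and -0.06 ± 0.065 (SE, edgeR adjusted p = 0.9). Neither gene passed the test. Rsad2 had 678, 732 and 686 CPM with vehicle, 667, 789 and 766 with saringosterol and 760.3, 1011 and 863 with GW, with changes of 0.08 ± 0.105 (SE, edgeR adjusted p = 0.76) and 0.33 ± 0.105 (SE, edgeR adjusted p = 0.37). All 3 GW libraries of Rsad2 were above the vehicle libraries, but the difference did not pass the test. Usp18 had 347, 387 and 342 CPM with vehicle, 302, 326 and 346 with saringosterol and 314, 380.4 and 333 with GW, with changes of -0.14 ± 0.065 (SE, edgeR adjusted p = 0.28) and -0.07 ± 0.065 (SE, edgeR adjusted p = 0.87). Bst2 had 609, 594 and 575 CPM with vehicle, 580.3, 568 and 587 with saringosterol and 560.3, 594 and 582 with GW, with changes of -0.03 ± 0.041 (SE, edgeR adjusted p = 0.73) and -0.04 ± 0.041 (SE, edgeR adjusted p = 0.9). Ifitm3 had 640, 677 and 589.7 CPM with vehicle, 651, 619.8 and 624 with saringosterol and 544, 679.9 and 609 with GW, with changes of -0.01 ± 0.063 (SE, edgeR adjusted p = 0.96) and -0.06 ± 0.063 (SE, edgeR adjusted p = 0.9). None of these passed the test. Stat2 had 173, 186 and 177 CPM with vehicle, 151, 169 and 176 with saringosterol and 159.7, 167 and 171 with GW, with changes of -0.11 ± 0.052 (SE, edgeR adjusted p = 0.31) and -0.10 ± 0.052 (SE, edgeR adjusted p = 0.63). Irf9 had 139, 131 and 133 CPM with vehicle, 128, 138 and 128 with saringosterol and 128, 144 and 134 with GW, with changes of -0.03 ± 0.051 (SE, edgeR adjusted p = 0.8) and 0.01 ± 0.051 (SE, edgeR adjusted p = 0.99). Lgals3bp had 277, 264 and 269 CPM with vehicle, 251, 244 and 265 with saringosterol and 234, 259 and 261 with GW, with changes of -0.09 ± 0.048 (SE, edgeR adjusted p = 0.34) and -0.10 ± 0.048 (SE, edgeR adjusted p = 0.56).

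Among the other named genes, Ddx58 had 142, 166 and 152 CPM with vehicle, 141, 144 and 149.9 with saringosterol and 129, 158 and 150.5 with GW, with changes of -0.08 ± 0.063 (SE, edgeR adjusted p = 0.57) and -0.07 ± 0.063 (SE, edgeR adjusted p = 0.84). Ifih1 had 60.3, 68.8 and 62.4 CPM with vehicle, 71.5, 69 and 67.9 with saringosterol and 60.3, 69.1 and 57.3 with GW, with changes of 0.12 ± 0.065 (SE, edgeR adjusted p = 0.36) and -0.04 ± 0.065 (SE, edgeR adjusted p = 0.94). Zbp1 had 85.1, 85.5 and 78.1 CPM with vehicle, 73.6, 67.4 and 79.7 with saringosterol and 68.2, 82.2 and 68.4 with GW, with changes of -0.17 ± 0.069 (SE, edgeR adjusted p = 0.21) and -0.19 ± 0.069 (SE, edgeR adjusted p = 0.34). None of these sensors was called. Ifit1 had 162, 193 and 166 CPM with vehicle, 137, 162 and 172 with saringosterol and 144, 222 and 171 with GW, with changes of -0.14 ± 0.177 (SE, edgeR adjusted p = 0.77) and 0.05 ± 0.177 (SE, edgeR adjusted p = 0.98). Ifit2 had 6.2, 7.98 and 5.76 CPM with vehicle, 4.93, 5.97 and 7.01 with saringosterol and 4.74, 10.8 and 7.84 with GW, with changes of -0.15 ± 0.248 (SE, edgeR adjusted p = 0.83) and 0.22 ± 0.244 (SE, edgeR adjusted p = 0.9). Ifit3 had 73.2, 95.2 and 61.4 CPM with vehicle, 47.4, 53.1 and 69 with saringosterol and 56.1, 124 and 80.9 with GW, with changes of -0.43 ± 0.332 (SE, edgeR adjusted p = 0.59) and 0.18 ± 0.327 (SE, edgeR adjusted p = 0.95). In the IFIT genes the GW group was led by its replicate 2, the highest library in each, and the standard errors were 0.177 to 0.332. Gbp2 had 64.8, 74.5 and 62.3 CPM with vehicle, 63.1, 65.7 and 67.8 with saringosterol and 58.6, 74.3 and 65.1 with GW, with changes of -0.04 ± 0.073 (SE, edgeR adjusted p = 0.86) and -0.03 ± 0.073 (SE, edgeR adjusted p = 0.97). Oasl2 had 51.8, 61.7 and 47.9 CPM with vehicle, 49.2, 47.3 and 52.1 with saringosterol and 49.2, 62.8 and 52 with GW, with changes of -0.12 ± 0.089 (SE, edgeR adjusted p = 0.55) and 0.02 ± 0.088 (SE, edgeR adjusted p = 0.98).

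Mx1 and Sp100 were low in hepatocytes. Mx1 had 0.819, 0.397 and 0.325 CPM with vehicle, 0.265, 0.833 and 0.539 with saringosterol and 0.806, 1.62 and 1.17 with GW, with changes of 0.10 ± 0.45 (SE, edgeR adjusted p = 0.95) and 1.20 ± 0.425 (SE, edgeR adjusted p = 0.29). The estimate for GW was the largest of the set in hepatocytes, and so was its standard error. Sp100 had 2.75, 3.86 and 2 CPM with vehicle, 1.92, 2.56 and 2.87 with saringosterol and 1.79, 4.01 and 2.37 with GW, with changes of -0.22 ± 0.261 (SE, edgeR adjusted p = 0.73) and -0.09 ± 0.259 (SE, edgeR adjusted p = 0.97). Oas2, listed at 4, 5 and 16 counts with vehicle, 4, 4 and 3 with saringosterol and 10, 17 and 0 with GW, was not tested.

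**Figure D5:**
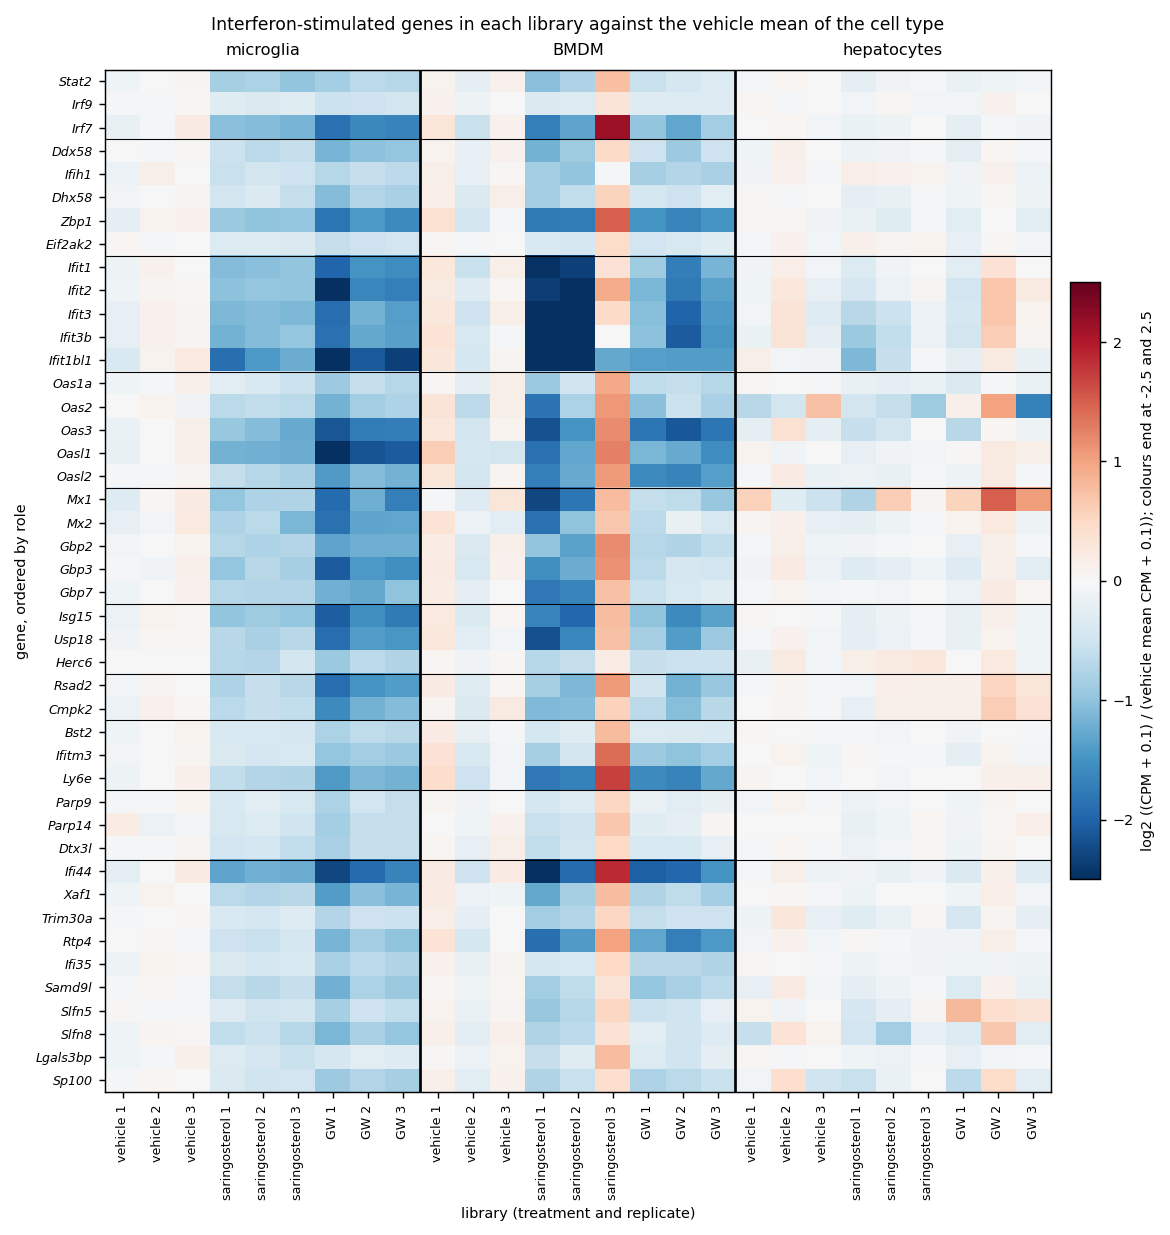
Each interferon-stimulated gene (rows, by role) in each of the 27 libraries (columns), as log2 of the level over the vehicle mean of the same cell type after adding 0.1 CPM to both; blue is lower, red higher, and colours end at -2.5 and 2.5. The 6 treated microglia libraries are blue throughout, saringosterol replicate 3 of BMDM is red in most rows beside 2 blue replicates, and hepatocytes are pale.

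Whether the responses differed between cell types was tested directly as a difference of changes in 1 fit of all 27 libraries, with 1 estimate of spread for each gene over all cell types. The GW response of microglia was more negative than that of hepatocytes in 7 genes (3.64% of all 18979 tested genes were), namely Ifih1, Ifit1bl1, Oasl1, Mx2, Herc6, Rsad2 and Cmpk2, with a median difference over the 44 genes of -1.18. The count was 2 without GW replicate 1 of microglia, 2 without GW replicate 2 of hepatocytes and 4 without vehicle replicate 1 of hepatocytes. Without saringosterol replicate 3 of BMDM in the fit, the same median came with 40 called genes (4.5% of all 19549 tested genes). The saringosterol responses of microglia and hepatocytes differed in 0 genes with all libraries (0.274% of all tested genes were more negative), with a median difference of -0.56, and in 14 without that library (0.726%).

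Between microglia and BMDM the GW responses differed in 0 genes with all libraries (5.28% of all tested genes were more negative in microglia and 4.43% less), with a median of -0.33, and in 11 without that library (6.15%), all more negative in microglia; 4 of the 11 were GTPase genes and 3 were Parp9, Parp14 and Dtx3l. The saringosterol responses differed in 0 genes (1.24% of all tested genes were more negative in microglia), with a median of -0.42. Without replicate 3, which was singled out by these same genes, the direction turned. There 6 genes were called, all less negative in microglia than in BMDM (0.834% of all tested genes), with a median of 0.42. The microglia and BMDM comparisons share their vehicle libraries between treatments, so the 2 treatments are not independent views of a cell type. DESeq2 called 0 and 0 and limma-voom 0 and 0 genes for these 2 differences, and 1 and 2 genes had an unadjusted p under 0.05 for GW and saringosterol. For these unadjusted counts the share of all tested genes was not determined.

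The ligands that start the pathway were at or near 0. Ifnb1, which encodes interferon beta, had 4, 2 and 4 counts in the vehicle microglia, 2, 4 and 0 with saringosterol and 0 in every GW library and in all 9 BMDM libraries. In hepatocytes it had 0, 6 and 0 counts with vehicle, 0 with saringosterol and 8, 2 and 2 with GW. In a list of 16 ligands and receptors, 5 were tested in microglia and in BMDM, all of them receptor genes, so that a change of ligand RNA was not detectable at this depth. Ifnar1 in microglia, at 248, 264 and 253 CPM with vehicle, 269, 269 and 250 with saringosterol and 262, 263 and 253 with GW, gave 0.04 ± 0.04 (SE, edgeR adjusted p = 0.59) and 0.02 ± 0.04 (SE, edgeR adjusted p = 0.72). With GW the receptor genes moved in both directions in microglia, while those called and given here for BMDM rose. Of all tested genes, 13.4% rose and 15.2% fell with GW in microglia, and 5.66% rose and 4.76% fell in BMDM. Ifnar2 rose by 0.38 ± 0.042 (SE, edgeR adjusted p = 1.8e-08) in microglia and 0.45 ± 0.058 (SE, edgeR adjusted p = 3e-05) in BMDM, or 0.46 ± 0.053 (SE, edgeR adjusted p = 5.1e-07) without saringosterol replicate 3. Ifngr1, a subunit of the interferon gamma receptor, rose by 0.79 ± 0.043 (SE, edgeR adjusted p = 2.7e-15) in microglia and 0.70 ± 0.065 (SE, edgeR adjusted p = 4.2e-07) in BMDM. Without that library its BMDM change was 0.70 ± 0.054 (SE, edgeR adjusted p = 3e-10). In the same fit Ifnar1 rose by 0.2 ± 0.055 (SE, edgeR adjusted p = 0.014) and Il10rb by 0.17 ± 0.051 (SE, edgeR adjusted p = 0.019) with GW. Ifngr2 was not called there (0.01 ± 0.049 (SE, edgeR adjusted p = 0.96)), and 7.94% of all tested genes rose and 7.81% fell. Ifngr2 fell in microglia (-0.16 ± 0.039 (SE, edgeR adjusted p = 0.0026)).

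Of the 14 kinases, signal transducers and regulatory factors, 7 fell and 0 rose with saringosterol in microglia (6.66% of all tested genes fell and 4.19% rose), while 6 fell and 2 rose with GW (15.2% and 13.4%). Irf1, a target of both kinds of interferon, fell in microglia (-0.39 ± 0.05 (SE, edgeR adjusted p = 1.3e-06) and -0.62 ± 0.05 (SE, edgeR adjusted p = 2.7e-11)), and Irf8, a lineage factor of macrophages and microglia, rose with GW (0.33 ± 0.039 (SE, edgeR adjusted p = 6.2e-08)). In hepatocytes 0 of the 14 were called with either treatment.

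The list of 15 genes for sensing upstream of interferon had medians of -0.15 with saringosterol and -0.16 with GW in microglia. With saringosterol 6 fell and 1 rose (6.66% and 4.19% of all tested genes), and with GW 7 fell and 2 rose (15.2% and 13.4%), so that the share that rose with GW was near that of all genes. Mavs, the mitochondrial adaptor of the RNA sensors, was among those that rose (0.23 ± 0.055 (SE, edgeR adjusted p = 0.0056) and 0.28 ± 0.055 (SE, edgeR adjusted p = 0.00016)), while Myd88, the adaptor of most Toll-like receptors, fell (-0.27 ± 0.051 (SE, edgeR adjusted p = 0.00033) and -0.37 ± 0.051 (SE, edgeR adjusted p = 1e-06)). In BMDM with all libraries 4 rose and 0 fell with saringosterol (5.53% and 5.12% of all tested genes), and 2 rose and 1 fell with GW (5.66% and 4.76%). Without saringosterol replicate 3, 4 rose and 3 fell with saringosterol (4.45% and 6.02%), and 4 rose and 2 fell with GW (7.94% and 7.81%).

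A further list, also chosen with earlier results of these data known, held 60 known interferon-stimulated genes outside the set. In microglia 51 of the 60 fell and 1 rose with saringosterol (6.66% and 4.19% of all tested genes), at a median of -0.48, and 56 fell and 1 rose with GW (15.2% and 13.4%), at a median of -0.78. The gene that rose was Ifi27, at 0.36 ± 0.056 (SE, edgeR adjusted p = 2e-05) with saringosterol and 0.59 ± 0.056 (SE, edgeR adjusted p = 7.9e-10) with GW. In BMDM 57 were tested: 0 fell and 1 rose with saringosterol over all libraries (5.12% and 5.53% of all tested genes), and 40 fell and 1 rose without replicate 3 (6.02% and 4.45%). With GW 1 fell and 1 rose in BMDM (4.76% and 5.66%), and without that library in the fit 34 fell and 1 rose (7.81% and 7.94%). In hepatocytes 1 of 55 rose with each treatment (0.888% of all tested genes with saringosterol and 0.721% with GW) and 0 fell. It was Cxcl10, a chemokine that draws T cells, which had 181, 164 and 172 CPM under vehicle, 195, 204 and 207 with saringosterol and 221, 219 and 226 with GW, at 0.23 ± 0.047 (SE, edgeR adjusted p = 0.0072) and 0.36 ± 0.047 (SE, edgeR adjusted p = 9e-06).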

How the data were processed

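Polyadenylated RNA of 27 libraries was sequenced. Per the submitters' processing notes, the authors used bcl2fastq, STAR 2.5.1a and featureCounts 1.4.6-p5 (Subread) with GRCm38; for strand setting and annotation release nothing is given in the sources used here. The deposited tables hold raw counts per gene and CPM, FPKM and TPM values that the authors computed from them; FPKM was not used further.

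From the counts, edgeR 4.0.16 (R 4.3.3) was fitted by cell type, over the vehicle libraries, and over all libraries for differences of responses: filterByExpr, TMM scaling, robust quasi-likelihood test, Benjamini-Hochberg adjustment over all tested genes, threshold 0.05. A gene called higher or lower passed that threshold. CPM levels of genes in the set and the pathway lists are given for single libraries. They are counts scaled to the library total after TMM scaling within the cell type. Marker CPM, the summed level of the set and the CPM allowed by a count of 0 use the library total alone. TPM levels are means of the deposited values. Alternatives were RLE scaling, DESeq2 1.42.0, limma-voom (limma 3.58.1), no filter, a replicate block and leaving out each library. The fits were tested on simulated data. Replicates differed by more than sampling noise in all 27 pairs (chi-square per degree of freedom 3.77 to 37.4).

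The genes and lists were chosen with earlier results of these data known. Full values were given for 20 genes chosen by role and for the 5 largest called changes of each comparison, with Ifnb1 and a few genes of the pathway lists; other genes of the lists were named after their values were seen. The values of 1 further gene of these lists are not reported here.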

Additional observations from a re-analysis of the deposited data

Results flagged for a closer look

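The response to GW differed between microglia and hepatocytes in 7 interferon-stimulated genes by the test of the difference itself, the change in microglia minus that in hepatocytes on the log2 scale, with p-values adjusted over all 18979 tested genes. In each of the 7 genes the 3 GW libraries of microglia lay below the 3 vehicle libraries. For Oasl1 the difference was -2.39 ± 0.452 (SE, edgeR adjusted p = 0.0016), from a change of -2.27 in microglia and 0.14 in hepatocytes. Ifit1bl1, with changes of -2.46 and -0.08, gave -2.36 ± 0.508 (SE, edgeR adjusted p = 0.0027). The neighbours Rsad2 (-1.59 and 0.33) and Cmpk2 (-1.28 and 0.37) differed by -1.89 ± 0.497 (SE, edgeR adjusted p = 0.02) and -1.62 ± 0.428 (SE, edgeR adjusted p = 0.021). Mx2 (-1.48 and 0.07) gave -1.53 ± 0.445 (SE, edgeR adjusted p = 0.037) and Herc6 (-0.78 and 0.06) gave -0.82 ± 0.215 (SE, edgeR adjusted p = 0.017). Ifih1, with changes of -0.65 and -0.04, was the closest to the threshold at -0.59 ± 0.186 (SE, edgeR adjusted p = 0.05), which was under the threshold before rounding. Medium and cell type cannot be told apart in these differences.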

How the results depend on the processing

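In microglia the counts of called genes stayed within 1.5 times under every alternative run: leaving out 1 library gave 38 to 43 genes for saringosterol, 44 to 44 for GW and 32 to 38 between them. The vehicle comparisons gave 43 to 44 for microglia against BMDM and 36 to 41 for hepatocytes. For saringosterol in BMDM, DESeq2, limma-voom and no filter gave 2 each, and leaving out 1 library gave 0 to 42. For GW in BMDM, DESeq2 gave 3, limma-voom 4, no filter 3 and the replicate block 2, with 0 to 41 when 1 library was left out. Between the treatments in BMDM, no filter gave 1 and leaving out a library 0 to 13. In hepatocytes no filter gave 1 for each treatment, limma-voom 2 for GW, and leaving out a library 0 to 1 for saringosterol, 0 to 3 for GW and 1 to 3 between them. For differences of responses, leaving out a library gave 0 to 6 (saringosterol) and 0 to 11 (GW) between microglia and BMDM, and 0 to 14 and 2 to 40 between microglia and hepatocytes. No filter gave 1 for GW between microglia and BMDM. Saringosterol between microglia and hepatocytes gave 2 with DESeq2, 3 with limma-voom and 1 with no filter, and GW gave 29 with limma-voom. The causes of these shifts were not tested. Deviations of libraries with the same number had correlations of -0.148 to 0.0693 in microglia and -0.0718 to 0.0386 in BMDM. Libraries with different numbers had -0.0715 to 0.116 and -0.132 to 0.109, so the same numbers did not deviate together there. In hepatocytes the ranges were -0.0254 to 0.111 for the same number and -0.08 to 0.0418 for different numbers. These values do not settle pairing in hepatocytes. The numbers were not used as pairs in the main fits. With the replicate block, the counts were 42, 44 and 36 in microglia, 1, 2 and 0 in BMDM and 2, 2 and 3 in hepatocytes, and 1 for saringosterol between microglia and hepatocytes; over all genes, calls in hepatocytes went from 307 to 782 for saringosterol and from 178 to 286 for GW. Depth limited the ligand genes and Oas2 in hepatocytes, which had counts near 0.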
